A study of Mus musculus with 36 samples.

Results

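The 37 genes described here encode chaperones, folding enzymes, stress sensors, degradation factors and transport subunits of the endoplasmic reticulum (ER). They were taken from a list of symbols, and all 37 were found among the 19879 genes of the deposited tables. The list was chosen with earlier results of these data known, so counts of called genes are not independent of that choice. They were measured by poly(A) RNA sequencing in BV-2 cells, a virus-immortalised mouse microglial line of wild-type genotype, in 36 libraries that form 12 groups of 3. The cells received 0.2% DMSO, 0.2% ethanol (EtOH), lipopolysaccharide (LPS, a bacterial activator of microglia, at 600 ng/mL), or the same LPS together with 30 µM dimethyl fumarate (DMF), 30 µM monomethyl fumarate (MMF) or 6 µM cannabidiol (CBD), each for 4 h or 24 h. MMF is the monoester that remains when 1 of the 2 methyl esters of DMF is hydrolysed, and CBD is a phytocannabinoid. DMF and MMF were dissolved in DMSO and CBD in EtOH, and the vehicle was held at 0.2% in all wells, but the sources used here do not state which vehicle the cells given LPS alone received. The serum in the medium was lowered just before treatment, and 3 independent experiments were carried out.

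The ER is the compartment in which secreted and membrane proteins fold, receive their disulfide bonds and sugars, and leave in COPII vesicles. When unfolded proteins accumulate there, the sensors IRE1 (gene Ern1), ATF6 and PERK start the unfolded protein response. IRE1 splices the mRNA of the transcription factor XBP1, ATF6 is cut to release a transcription factor, and both factors raise the genes of chaperones and of ER-associated degradation (ERAD), which moves misfolded proteins out to the proteasome. PERK lowers translation and raises ATF4 and CHOP (gene Ddit3). Microglia and macrophages secrete large amounts of protein when activated by LPS, and this pathway is known to take part in that state. Read counts per gene do not separate spliced from unspliced Xbp1 mRNA, and protein was not measured.

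The known binding elements of ATF6 and XBP1 were looked for in the promoters. The list holds genes of the kinds that these factors raise, so a high share of sites is not independent of the list. Each promoter covered 250 bases before to 50 bases after the start of the canonical transcript (GRCm39, GENCODE vM39), and both strands were read. For some genes another annotated transcript starts elsewhere, as for Hspa5, whose gene model begins upstream of its site. The ER stress response element (ERSE) was CCAAT, then 9 bases of any kind, then CCACG. It stood in 10 of the 37 promoters (27.0%), against 27 of 21770 promoters of all protein-coding genes (0.124%), these 10 included. Its relative ERSE-II (ATTGG, 1 base, CCACG) stood in 4 of 37 (10.8%), against 0.0689% of all. The XBP1-bound element UPRE (TGACGTGG) stood in 2 of 37 (5.41%), against 0.721% of all. The sites, with 10 flanking bases on each side, are shown because such elements are rare in other promoters. The element is in capitals, and each line reads 5′ to 3′ on the strand that carries the element in this orientation.
Hspa5 (chr2:34662027-34662065, plus strand): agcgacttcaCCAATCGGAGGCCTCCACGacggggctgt
Hsp90b1 (chr10:86541387-86541425, plus strand): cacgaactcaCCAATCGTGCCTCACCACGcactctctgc
Hsp90b1 (chr10:86541492-86541530, minus strand): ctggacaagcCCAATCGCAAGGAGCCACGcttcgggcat
Calr (chr8:85573694-85573732, plus strand): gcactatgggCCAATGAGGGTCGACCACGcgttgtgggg
Canx (chr11:50216617-50216655, minus strand): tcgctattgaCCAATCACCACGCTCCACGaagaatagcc
Pdia6 (chr12:17316482-17316520, plus strand): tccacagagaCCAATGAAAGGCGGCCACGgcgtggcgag
Dnajc3 (chr14:119175229-119175267, plus strand): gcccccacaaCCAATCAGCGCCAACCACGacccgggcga
Creld2 (chr15:88703713-88703751, minus strand): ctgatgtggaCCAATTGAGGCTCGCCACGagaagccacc
Syvn1 (chr19:6096552-6096590, plus strand): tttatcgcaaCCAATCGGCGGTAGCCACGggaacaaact
Ero1b (chr13:12580553-12580591, minus strand): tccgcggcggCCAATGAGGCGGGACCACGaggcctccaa
Derl3 (chr10:75729066-75729104, minus strand): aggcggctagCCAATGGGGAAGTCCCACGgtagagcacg
All 11 sites lay before the start, from base 162 to base 19 upstream of it. Of the 10 genes, 6 encode chaperones, co-chaperones or a chaperone-like protein (Hspa5, Hsp90b1, Calr, Canx, Dnajc3, Creld2), 2 disulfide enzymes (Pdia6, Ero1b) and 2 ERAD components (Syvn1, Derl3). The ERSE-II sites, below, were in promoters without an ERSE. The Dnajb11 site lies within the transcript and is shown with 9 flanking bases, and the first Hyou1 site borders on the start, beyond which no base is printed.
Herpud1 (chr8:95112995-95113025, plus strand): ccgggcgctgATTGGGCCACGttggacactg
Manf (chr9:106769228-106769258, plus strand): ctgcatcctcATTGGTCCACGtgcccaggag
Hyou1 (chr9:44290752-44290772, minus strand): ATTGGTCCACGtagaagaccc
Hyou1 (chr9:44290651-44290681, minus strand): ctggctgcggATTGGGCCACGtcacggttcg
Dnajb11 (chr16:22676593-22676621, plus strand): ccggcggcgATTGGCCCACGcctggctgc
Both UPRE matches are marked in the same way. The one in Hyou1 runs from base 115 to base 108 before the start and so shares bases with the second ERSE-II site, which spans bases 112 to 102, while that of Sec24d lies in the transcript at bases 16 to 23.
Hyou1 (chr9:44290648-44290675, plus strand): ccgcgaaccgTGACGTGGcccaatccgc
Sec24d (chr3:123061110-123061135, plus strand): ccgggcgccTGACGTGGcactagcaa
These are matches of letters, and binding was not measured.

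The libraries held 14110424 to 26676607 reads in genes. All 10 microglia and macrophage markers examined were detected with medians of at least 10 normalized counts, and their summed level lay between 25369 and 45632. The neuron, astrocyte and fibroblast markers found in the tables stayed under a median of 10, at summed levels of at most 26.5. Of the oligodendrocyte and endothelial markers reported here, Mbp (658 to 1508), Pecam1 (42.6 to 138) and Cdh5 (8.36 to 47.0) were detected, whereas Mog and Cldn5 had medians of 0. Reads of mitochondrially encoded genes made up 1.25% to 2.32% of each library. No 2 libraries of a group agreed within sampling noise, so each counts as 1 replicate.

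Levels are given as normalized counts, that is, reads divided by 1 size factor per library fitted over all 36 libraries, and per kb of exon where genes are compared with one another. The ER genes were abundant: their median was 496 normalized counts per kb, against 94.6 over 11571 genes, and 33 of the 37 lay above that value. P4hb, the protein disulfide isomerase, was the highest at 7774 per kb, followed by Hspa5 (BiP, the main Hsp70 chaperone of the ER) at 4577, Calr (calreticulin, a lectin chaperone) at 4167 and Ero1a (the oxidase that recharges protein disulfide isomerases) at 3291. The lowest were Wfs1 (wolframin, an ER membrane protein that restrains ATF6) at 0.151 and Derl3 (a derlin of the ERAD channel) at 4.06 per kb. Wfs1 had 0 to 5.76 normalized counts in the 36 libraries and entered none of the tests, which required at least 10 in at least 3 of the libraries compared. Derl3 had 0 to 21.6 and was tested at 4 h but not between the treatments at 24 h, leaving 36 genes tested at 4 h and 35 at 24 h. Ero1a also varied most between groups among the tested genes, from a group mean of 4658 normalized counts in EtOH at 4 h to 37147 in EtOH at 24 h.

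Some exons are shared with other genes, and the sources used here do not say whether strand was used in counting. Of the annotated exon bases of Hspa5, 44.2% overlap Rabepk on the opposite strand, which had a mean of 524 reads per library against 26036 for Hspa5. Xbp1 shares 22.0% with Ccdc117 on the opposite strand (1102 against 3038 reads), and Manf shares 32.6% with Rbm15b on its own strand (1236 against 3023 reads). Values of Xbp1 and Manf are therefore less certain than most others. Smaller shares with expressed genes were also present. Sec24d shares 2.59% with Mettl14 on the opposite strand (466 against 408 reads). Derl2 shares 4.23% with Mis12 on the opposite strand (661 against 1279 reads).

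**Figure D1:**
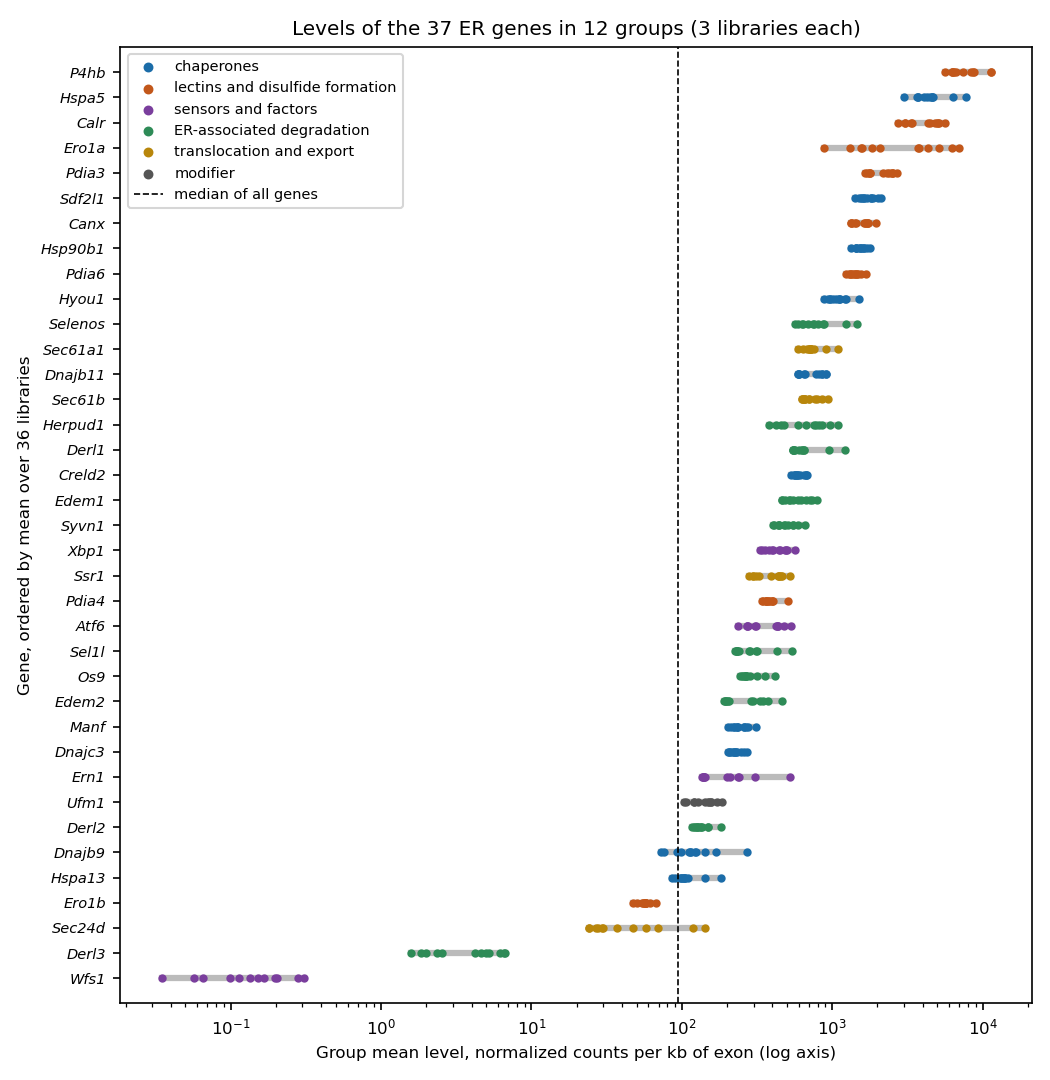
Mean level of each of the 37 ER genes in each of the 12 groups (points, 3 libraries per group), in normalized counts per kb of exon on a log axis; the grey line joins the lowest and highest group and the dashed line is the median over 11571 genes. Most genes lie to the right of the dashed line and Ero1a spans the widest range of the abundant genes, from EtOH at 4 h to EtOH at 24 h.

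To see how the pathway differed under LPS, the LPS libraries were compared with each vehicle. The LPS libraries were numbered 1 to 3 and the vehicle libraries 4 to 6. The labels do not say whether these sets were handled together. A difference between such sets cannot be told apart here from an effect of LPS. Fold changes, here and below, are log2 values ± SE from limma fitted on all genes of the authors' table for that pair (3 against 3 libraries, pseudocount 1), and a gene was called changed when its Benjamini-Hochberg adjusted p over all genes tested was below 0.05. At 4 h, 7 of the 36 tested ER genes rose against DMSO, where 7.70% of all genes rose, and 0 fell, where 6.38% of all genes did. Against EtOH, 2 of 36 rose (5.69% of all genes) and 0 fell (4.48%). The median change of the ER genes was 0.16 against DMSO and 0.05 against EtOH, with a median over all genes of 0.00 in both. In bulk RNA, fewer cells of a type and less RNA per cell cannot be told apart.

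The largest change at 4 h was in Herpud1, a membrane protein that assembles the ERAD complex (ENSMUSG00000031770, chr8:95113066-95122005, plus strand). Its normalized counts were 1436, 1350.1 and 1618 in DMSO, 1494, 1586 and 1862 in EtOH and 2884, 3613 and 2959.7 in LPS. All 3 LPS libraries lay above all 6 vehicle libraries, and the change was 1.09 ± 0.10, adjusted p = 0.000397 against DMSO and 0.94 ± 0.11, adjusted p = 0.00183 against EtOH. Hspa5 (ENSMUSG00000026864, chr2:34661982-34667559, plus strand) had 17891, 15726 and 16665 in DMSO, 19530.2, 20320.2 and 21203 in EtOH and 26136, 26086 and 24685 in LPS. Again the LPS libraries were above both vehicles, with 0.61 ± 0.08, adjusted p = 0.00171 against DMSO and 0.33 ± 0.07, adjusted p = 0.0213 against EtOH. Selenos, a selenoprotein of the ERAD channel, had 1110.4, 959 and 985 in DMSO, 1065, 1043 and 1193 in EtOH and 1258, 1354 and 1279.5 in LPS, and rose against DMSO (0.35 ± 0.08, adjusted p = 0.0193), with 0.24 ± 0.07, adjusted p = 0.0816 against EtOH. The other genes called against DMSO were Manf and Creld2 (secreted chaperone-like proteins, 0.34 and 0.33), Syvn1 (the ubiquitin ligase HRD1 of ERAD, 0.30) and Ufm1 (a ubiquitin-like modifier that acts at the ER, 0.26). Of the 8 lectin chaperones and disulfide enzymes and the 3 tested sensors and factors, 0 were called by limma, edgeR or DESeq2, and Atf6 was at an unadjusted p below 0.05.

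Of these 7 calls against DMSO, 2 (Herpud1 and Hspa5) were kept with any single library left out. Leaving out LPS replicate 3 gave 4 calls, leaving out replicate 5 of DMSO gave 3, and leaving out its replicate 6 gave 2. Against EtOH, the Hspa5 call was lost in 5 of 6 such fits, with LPS replicate 1 or 3 or any 1 of the EtOH libraries taken out (adjusted p of at most 0.103), and 1 gene was called when LPS replicate 3 or an EtOH library was. Ufm1 was not called by DESeq2 (adjusted p = 0.0539), with TMM scaling (adjusted p = 0.0502) or without the filter on low values (adjusted p = 0.0617).

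At 24 h more ER genes were called lower than higher under LPS, but the set as a whole was near 0. Against DMSO 16 changes were positive and 19 negative, with a median of -0.02 (0.01 over all genes). Against EtOH 17 were positive and 18 negative, with a median of -0.0005 (0.01 over all genes). Against DMSO, 3 of 35 ER genes rose (12.1% of all genes) and 7 fell (10.6%); against EtOH, 2 rose (10.8%) and 6 fell (9.72%). The genes that fell included those of chaperones, ERAD and export. Sec24d, a cargo-binding subunit of the COPII coat (ENSMUSG00000039234, chr3:123061104-123159290, plus strand), had 471, 547 and 532 in DMSO, 378, 468 and 433 in EtOH and 248, 303 and 272 in LPS. All LPS libraries were below all vehicle libraries (-0.90 ± 0.11, adjusted p = 0.000195 against DMSO; -0.63 ± 0.12, adjusted p = 0.0035 against EtOH). Dnajb9, a J-protein partner of BiP that binds IRE1 (ENSMUSG00000014905, chr12:44252342-44257109, minus strand), had 463, 461 and 638 in DMSO, 566, 461 and 497 in EtOH and 319, 275 and 359.5 in LPS. Here too the groups did not overlap, with -0.69 ± 0.14, adjusted p = 0.00526 against DMSO and -0.67 ± 0.12, adjusted p = 0.00225 against EtOH. Herpud1, which had been higher under LPS at 4 h, was now lower, at 1660.1, 1773 and 1909.6 against 2428, 2714 and 2639.8 in DMSO and 2291, 2426 and 2205 in EtOH (-0.53 ± 0.08, adjusted p = 0.00068 and -0.37 ± 0.08, adjusted p = 0.00675). Ero1a had 20229, 27216 and 21703 in LPS, below the 29365, 36457 and 33869 in DMSO and the 29213, 37029 and 45198 in EtOH (-0.52 ± 0.12, adjusted p = 0.0104 and -0.67 ± 0.16, adjusted p = 0.0108). P4hb (-0.41 and -0.41) and Syvn1 (-0.41 and -0.26) also fell against both vehicles, and Hspa5 against DMSO (-0.29 ± 0.09, adjusted p = 0.0412) but not by the test against EtOH (-0.18 ± 0.09, adjusted p = 0.192).

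The rises at 24 h were smaller. Ero1b, the second ER oxidase, had 373, 339 and 366 in DMSO, 379, 423 and 419 in EtOH and 519.5, 496 and 496 in LPS, with the LPS libraries above both vehicles (0.50 ± 0.09, adjusted p = 0.00219 and 0.32 ± 0.09, adjusted p = 0.033). Ern1 had 1910.3, 1989 and 2174 in DMSO and 2240.3, 2366 and 2524 in LPS (0.25 ± 0.08, adjusted p = 0.0405), and its EtOH libraries, at 1993, 1880.3 and 2451, overlapped those of LPS (0.19 ± 0.10, adjusted p = 0.211). Pdia6, a disulfide isomerase, had 7685, 7993 and 7976 in DMSO and 9016, 8787 and 9203 in LPS (0.20 ± 0.07, adjusted p = 0.0432; 0.13 ± 0.07, adjusted p = 0.197 against EtOH). Calr had 11496, 10583 and 9415 in EtOH and 12327, 12605 and 13697 in LPS (0.31 ± 0.09, adjusted p = 0.029), with 0.17 ± 0.08, adjusted p = 0.142 against DMSO. Of the 10 calls against DMSO, 6 were kept with any single library left out, and of the 8 against EtOH, 3 were. Taking out DMSO replicate 5 gave 6 calls against DMSO. Against EtOH, 3 calls were left when the third LPS library was taken out and 4 when EtOH replicate 5 was.

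The difference between the LPS effect at 24 h and that at 4 h was tested itself, in 1 limma fit over the 12 LPS and DMSO libraries. The effect was lower at 24 h for 8 of 36 ER genes (4.38% of all genes) and higher for 1 (4.98%). The difference was -1.62 ± 0.14, adjusted p = 2.54e-05 for Herpud1, -1.0 ± 0.18, adjusted p = 0.0048 for Dnajb9, -0.90 ± 0.22, adjusted p = 0.0192 for Sec24d, -0.90 ± 0.13, adjusted p = 0.00105 for Hspa5 and -0.71 ± 0.09, adjusted p = 0.000689 for Syvn1. Ufm1 (-0.46), Selenos (-0.43) and Manf (-0.38) were the other falls, and Ero1b (0.48) the rise. Without DMSO 24 h replicate 6 the count of calls was 5, and Sec24d was then at an adjusted p of 0.0523.

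**Figure D2:**
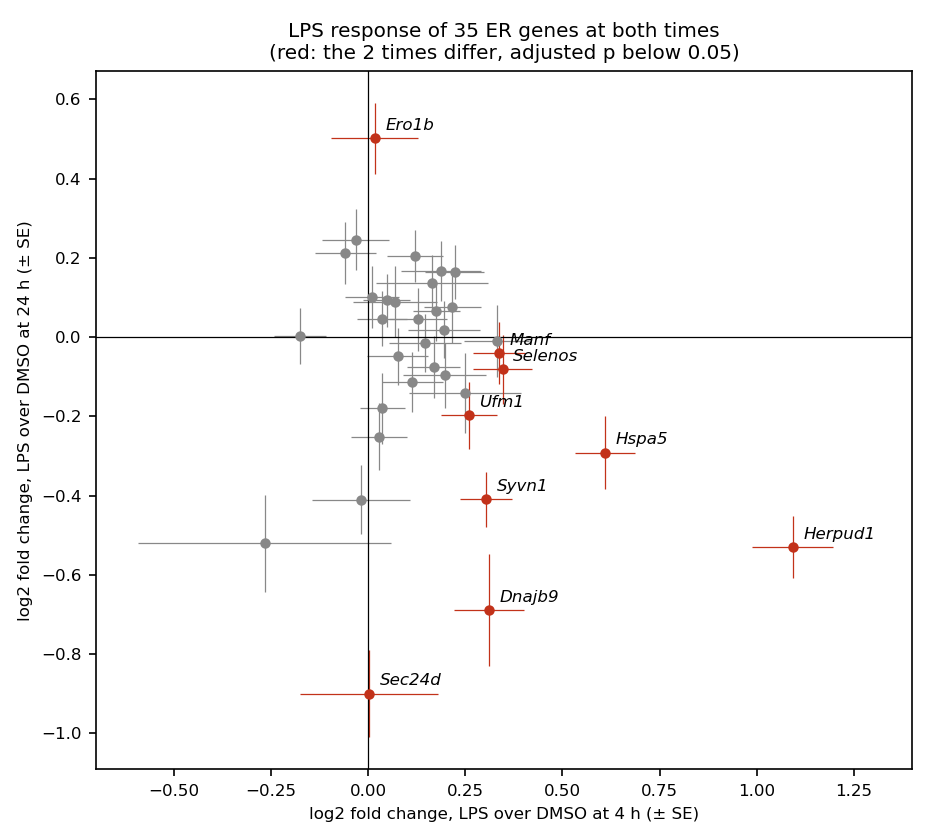
Log2 fold change of LPS over DMSO at 4 h (horizontal) and at 24 h (vertical) for the 35 ER genes tested at both times, with SE bars; red points are the 9 genes whose effect differed between the times. Herpud1 and Hspa5 lie to the right of 0 and below it, and Sec24d lies near 0 at 4 h and lowest at 24 h.

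At 4 h, no ER gene was called by limma for any of the 3 drugs against LPS. The count was 0 of 36 for DMF, where 11.1% of all genes were called in either direction, 0 of 36 for MMF (0.122% of all genes) and 0 of 36 for CBD (0.00875% of all genes). At an unadjusted p below 0.05 there were 3, 5 and 1 genes, and edgeR and DESeq2 called 0 in each. The fold changes lay between -0.25 and 0.52 for DMF, -0.23 and 0.71 for MMF and -0.59 and 0.33 for CBD, and the median half-width of the 95% intervals was 0.22, 0.19 and 0.17. With the replicate number as a block, Ero1a rose under DMF (0.52 ± 0.08, adjusted p = 0.0055) and under MMF (0.71 ± 0.14, adjusted p = 0.0187). For MMF the correlation between same-numbered libraries was as low as 0.0836, against 0.169 for DMF. The counts of Ero1a were 4665, 10422 and 5952 in LPS and 7276, 13352 and 8879 in LPS with DMF, higher at each of the 3 replicate numbers but overlapping between the groups.

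At 24 h CBD raised 25 of 35 ER genes against LPS (23.9% of all genes) and lowered 1 (24.8%). DMF raised 16 of 35 (11.9% of all genes) and lowered 1 (13.2%). MMF changed 0 of 35 (0% of all genes), with 2 genes at an unadjusted p below 0.05 and 0 by edgeR or DESeq2. The median fold change of the ER genes was 0.48 with CBD, 0.24 with DMF and 0.01 with MMF, against 0.00, -0.01 and 0.00 over all genes. These 3 comparisons share the LPS libraries, so their values are set side by side, and CBD was given at another dose than the fumarates.

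**Figure D3:**
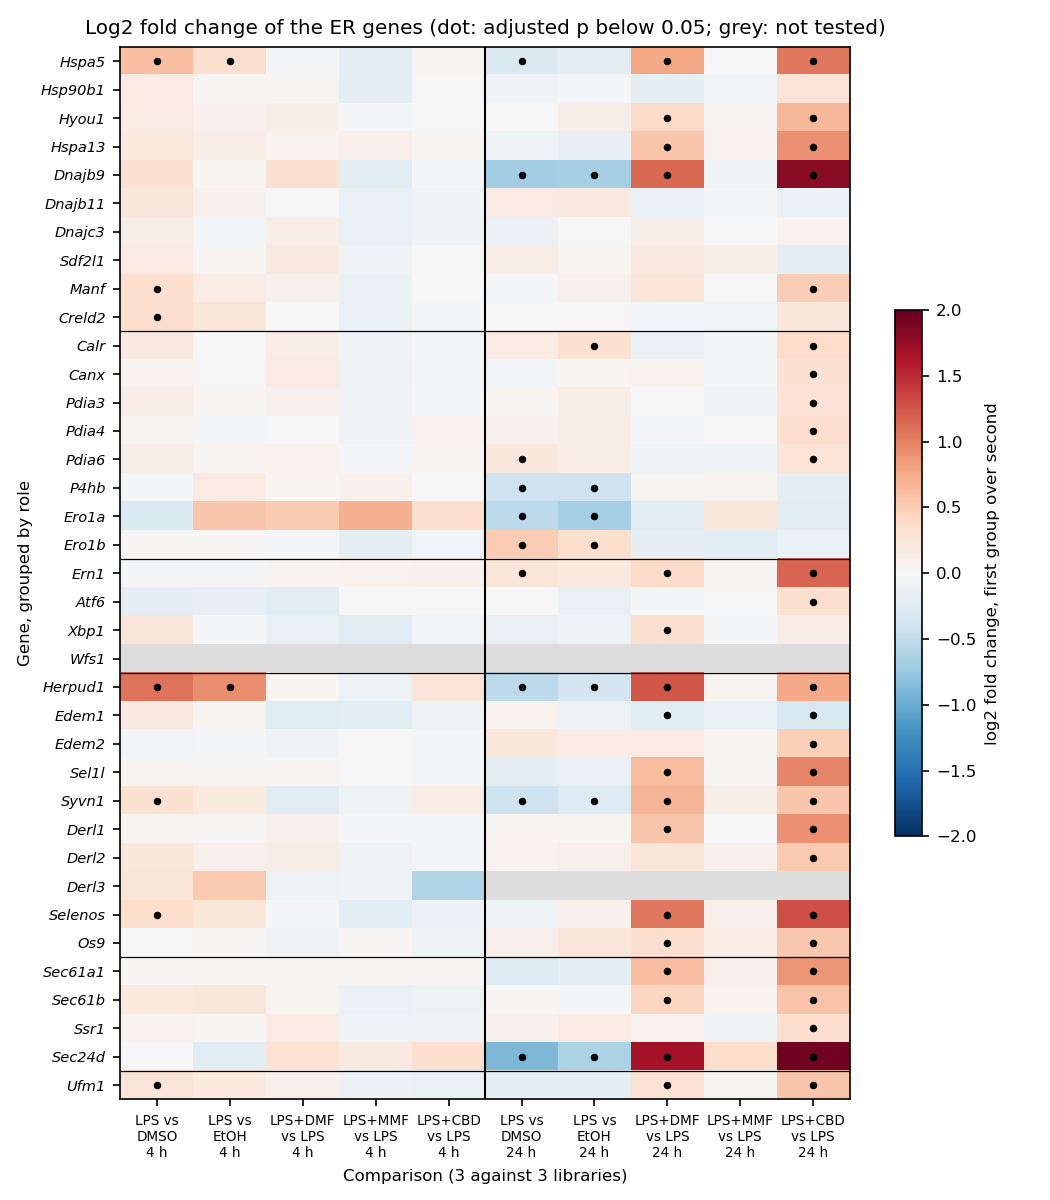
Log2 fold change (colour) of each ER gene (rows, grouped by role) in 10 comparisons (columns, 3 against 3 libraries), with a dot where the adjusted p was below 0.05 and grey where the gene was not tested. The drug columns are without dots at 4 h, and at 24 h the CBD column holds 26 dots, the DMF column 17 and the MMF column 0.

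Among the Hsp70 and Hsp90 chaperones and their partners, DMF raised 4 of 10 (11.9% of all genes) and CBD 5 of 10 (23.9%) at 24 h. Hspa5 had 22682, 18444 and 20842 in LPS, 29587, 38011 and 38634 with DMF, 20959.9, 19171 and 21609 with MMF and 37997, 37046 and 54683 with CBD. Every DMF and CBD library was above every LPS library, and those of MMF overlapped with LPS. The change was 0.77 ± 0.12, adjusted p = 0.00162 with DMF and 1.05 ± 0.16, adjusted p = 0.000574 with CBD. The third CBD library was the highest of all 36, and without it the CBD value was 0.87. Dnajb9 had 319, 275 and 359.5 in LPS, 564, 759 and 799 with DMF, 288, 289 and 330.3 with MMF and 982, 923 and 1462 with CBD. It was the chaperone gene with the largest change under both drugs (1.14 ± 0.14, adjusted p = 0.000704 with DMF; 1.80 ± 0.17, adjusted p = 4.89e-05 with CBD). Hspa13, an Hsp70-like ATPase of microsomes, rose by 0.56 ± 0.08 with DMF and 0.92 ± 0.10 with CBD, and Hyou1, the large Hsp70 relative that exchanges nucleotide on BiP, by 0.38 ± 0.09 and 0.67 ± 0.09. Manf, which binds BiP, rose with CBD (0.49 ± 0.09, adjusted p = 0.00135), with 0.24 ± 0.09, adjusted p = 0.0862 under DMF, where the replicate block gave an adjusted p of 0.0235. Hsp90b1 (GRP94, the ER Hsp90) was at -0.17 ± 0.08, adjusted p = 0.147 with DMF and 0.25 ± 0.10, adjusted p = 0.053 with CBD, and its promoter is the one with 2 ERSE sites. With the replicate block, Hsp90b1 (adjusted p = 0.0176) and Creld2 (0.0322) were called higher with CBD, and DESeq2 also called Hsp90b1 (adjusted p = 0.0381). For CBD and LPS at 24 h, not every library correlated best with the one of its own number. Dnajb11, Dnajc3, Sdf2l1 and Creld2 were not called under either drug without the block, with values from -0.13 (Dnajb11) to 0.18 (Sdf2l1) for DMF and from -0.19 (Sdf2l1) to 0.21 (Creld2) for CBD.

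Of the 8 lectin chaperones and disulfide enzymes, 5 rose under CBD, by at most 0.37 (23.9% of all genes rose). Under DMF 0 of the 8 were called by limma, edgeR or DESeq2, and 1 was at an unadjusted p below 0.05, while the replicate block called Ero1a lower (-0.21 ± 0.06, adjusted p = 0.0223). Calr, with 12327, 12605 and 13697 in LPS, 10167, 12663 and 12077 with DMF and 14886, 17931 and 17086 with CBD, was at 0.37 ± 0.10, adjusted p = 0.0111 with CBD and -0.15 ± 0.09, adjusted p = 0.239 with DMF. Its CBD libraries did not overlap with those of LPS. Canx (calnexin, the membrane-bound lectin chaperone) rose by 0.30 ± 0.09 with CBD, and the disulfide isomerases Pdia3, Pdia4 and Pdia6 by 0.29 ± 0.08, 0.33 ± 0.07 and 0.27 ± 0.08. Under DMF these 4 were at 0.07, -0.01, -0.02 and -0.09. P4hb, Ero1a and Ero1b were called under neither drug without the block, with -0.19, -0.21 and -0.13 for CBD and 0.03, -0.21 and -0.20 for DMF. Canx, Pdia3 and Pdia6 each lost the call under CBD when 1 LPS library was left out (adjusted p of at most 0.0577), and Canx also without CBD replicate 3.

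Of the sensors and factors, Ern1 changed most. Its counts were 2240.3, 2366 and 2524 in LPS, 3032, 3056 and 3175 with DMF, 2383, 2396 and 2475 with MMF and 4818, 5033 and 6107 with CBD. The DMF libraries lay above those of LPS and the CBD libraries above all others of the series, with 0.38 ± 0.07, adjusted p = 0.00387 for DMF and 1.16 ± 0.10, adjusted p = 2.79e-05 for CBD. Atf6 rose with CBD (0.32 ± 0.07, adjusted p = 0.00512) and was at -0.03 ± 0.07, adjusted p = 0.766 with DMF. Xbp1 rose with DMF (0.33 ± 0.09, adjusted p = 0.022) and was at 0.13 ± 0.09, adjusted p = 0.232 with CBD. The Xbp1 call under DMF was lost without DMF replicate 2 or 3 or LPS replicate 1 or 3 (adjusted p of at most 0.099).

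Most ERAD genes rose under both drugs: DMF raised 6 of 9 (11.9% of all genes) and CBD 8 of 9 (23.9%). Selenos had 929, 794 and 916 in LPS, 1500.2, 1965 and 2033 with DMF, 882, 958 and 999 with MMF and 1988, 1991 and 2492 with CBD. The DMF and CBD libraries were all above those of LPS (1.05 ± 0.12, adjusted p = 0.000383 and 1.29 ± 0.11, adjusted p = 2.73e-05). Herpud1 had 1660.1, 1773 and 1909.6 in LPS, 3529, 4329 and 4831 with DMF, 1774, 1762 and 2031 with MMF and 3019, 2842 and 3147 with CBD. Its libraries did not overlap with those of LPS under either drug (1.24 ± 0.11, adjusted p = 8.40e-05 with DMF; 0.76 ± 0.08, adjusted p = 7.73e-05 with CBD). Sel1l (the scaffold of the HRD1 ligase) rose by 0.64 ± 0.09 and 0.97 ± 0.09, Derl1 (a channel subunit) by 0.56 ± 0.08 and 0.91 ± 0.08, Syvn1 by 0.69 ± 0.08 and 0.55 ± 0.08, and Os9 (a lectin that selects ERAD substrates) by 0.31 ± 0.07 and 0.54 ± 0.08, DMF first. Derl2 and Edem2, a derlin and a mannosidase-like ERAD protein, rose with CBD (0.53 ± 0.09 and 0.48 ± 0.08) and were at 0.24 ± 0.09, adjusted p = 0.0835 and 0.17 ± 0.08, adjusted p = 0.14 with DMF, where the replicate block called Derl2 (adjusted p = 0.0127). Edem1, a relative of Edem2, was the exception, with 7052, 7280.0 and 6661 in LPS, 5624, 6238 and 5907 with DMF and 5363, 6564 and 4883 with CBD. It fell with DMF (-0.24 ± 0.07, adjusted p = 0.0285) and with CBD (-0.33 ± 0.11, adjusted p = 0.0317), the groups did not overlap, and each call was lost in 4 of 6 and 5 of 6 fits, respectively, with 1 library left out.

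Of the 4 translocation and export genes, 3 rose with DMF (11.9% of all genes) and 4 with CBD (23.9%). Sec24d had the largest fold change of all ER genes under both drugs, with 248, 303 and 272 in LPS, 672, 991 and 975 with DMF, 353, 357 and 339.6 with MMF and 953, 945 and 1259 with CBD. This was 3.16-fold with DMF (1.66 ± 0.15, adjusted p = 8.72e-05) and 3.82-fold with CBD (1.93 ± 0.13, adjusted p = 8.24e-06). Sec61a1, the pore of the translocon, rose by 0.62 ± 0.10 with DMF and 0.88 ± 0.11 with CBD, and Sec61b, a small subunit beside it, by 0.43 ± 0.11 and 0.58 ± 0.08. Ssr1, of the translocon-associated TRAP complex, rose with CBD (0.34 ± 0.09, adjusted p = 0.0138) and was at 0.07 ± 0.08, adjusted p = 0.59 with DMF. Ufm1 rose by 0.29 ± 0.09 with DMF and 0.55 ± 0.11 with CBD.

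Of the 26 calls under CBD, 22 were kept with any single library left out. Of the 17 under DMF, 11 were, and the count was 11 without DMF replicate 3. The share of mitochondrially encoded reads was 1.25% to 1.4% in the CBD libraries at 24 h, against 1.44% to 2.32% in LPS and 2.06% to 2.24% in LPS with DMF, and its part in the result was not tested.

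**Figure D4:**
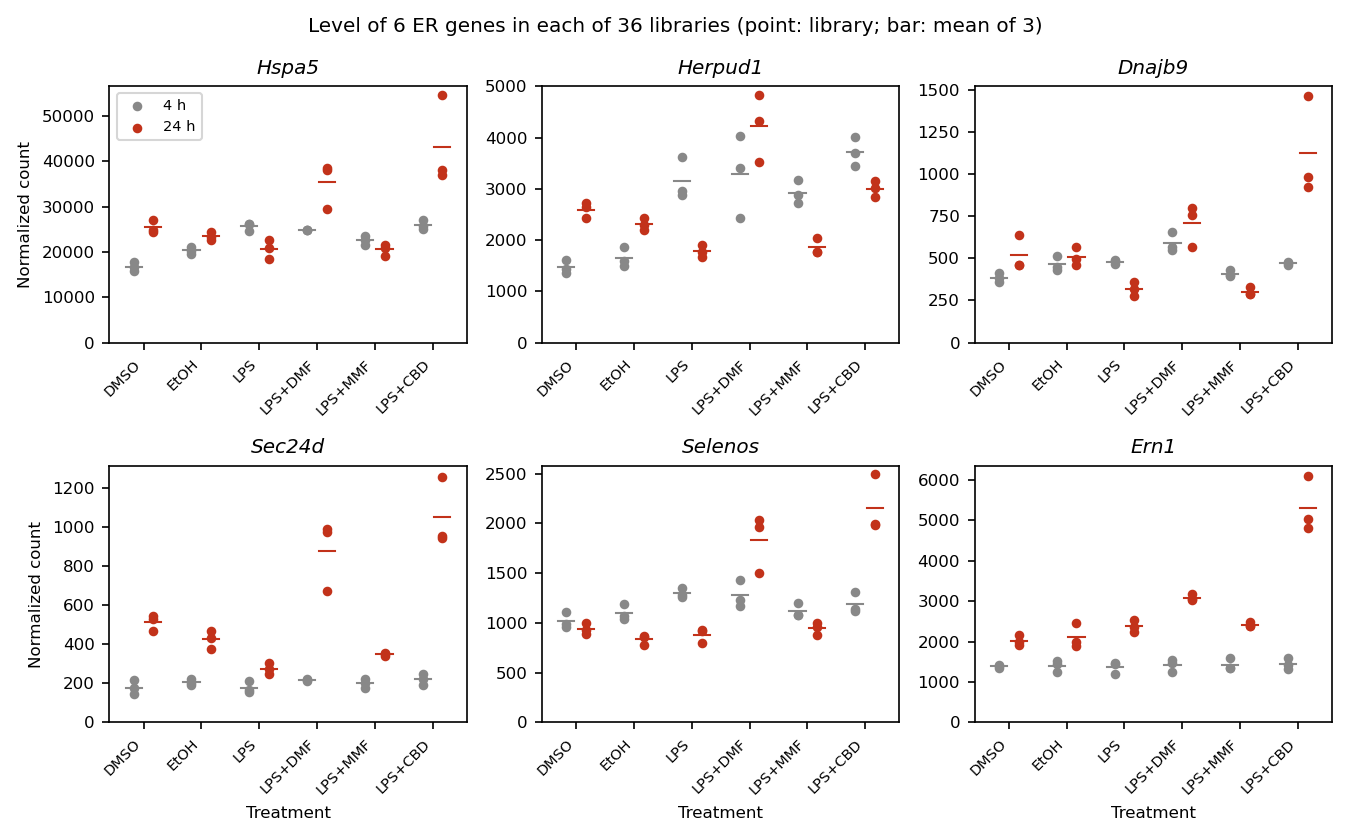
Normalized counts of 6 ER genes in each library (points, grey for 4 h and red for 24 h; short bars are means of 3) for the 6 treatments, on linear axes from 0. At 24 h the DMF and CBD points of all 6 genes lie above those of LPS and MMF, and the third CBD library is the highest for each of them except Herpud1.

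DMF and MMF were given at the same dose and times and differ in structure by 1 methyl ester, so they were compared directly. Over the 2 times, 2 comparisons were made, each adjusted over all genes. At 24 h, 14 of 35 ER genes were higher with DMF (10.1% of all genes) and 0 lower (11.4%). Sec24d was 2.47-fold higher (log2 1.30 ± 0.14, adjusted p = 0.000472; 95% interval 1.0 to 1.61), Dnajb9 2.31-fold (1.21 ± 0.13, adjusted p = 0.000574; 0.91 to 1.50) and Herpud1 2.26-fold (1.18 ± 0.11, adjusted p = 0.000257; 0.93 to 1.42). Selenos (0.94 ± 0.11), Hspa5 (0.77 ± 0.10), Sel1l (0.61 ± 0.08), Syvn1 (0.57 ± 0.07), Derl1 (0.54 ± 0.07), Sec61a1 (0.52 ± 0.09), Hspa13 (0.49 ± 0.07), Ern1 (0.35 ± 0.06), Xbp1 (0.35 ± 0.08), Hyou1 (0.34 ± 0.08) and Ufm1 (0.26 ± 0.08) were the others. For the 21 genes not called in this fit, the differences lay between -0.44 and 0.36, and their 95% intervals had a median half-width of 0.18 and reached from -0.81 to 0.63, so differences of those sizes were not excluded. For Hsp90b1 the interval was -0.27 to 0.04, for Calr -0.32 to 0.06 and for Pdia6 -0.17 to 0.18. With the replicate block 20 genes were called, 19 higher and 1 lower. The shares of all genes given above belong to the fit without the block. Ero1a was lower with DMF (-0.44 ± 0.07, adjusted p = 0.000225), and Sec61b (0.36 ± 0.07, adjusted p = 0.00127), Manf, Os9, Derl2 and Ssr1 (0.15 to 0.24) joined those that were higher.

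At 4 h, Dnajb9 was the single ER gene called between DMF and MMF, which is 1 of 36 higher with DMF (3.37% of all genes) and 0 lower (4.97%). Its counts were 658, 549 and 569.8 with DMF and 396, 403 and 429 with MMF, without overlap (0.52 ± 0.11, adjusted p = 0.0167; 95% interval 0.28 to 0.76). The call was lost without DMF replicate 3 or any 1 MMF library (adjusted p of at most 0.0654), which left 0 genes called. Against LPS at 24 h, the fold changes with MMF lay between -0.22 and 0.35 and the 95% intervals between -0.42 and 0.60. With the replicate block, Sec24d (0.35 ± 0.09, adjusted p = 0.0468) and Ero1a (0.23 ± 0.06, adjusted p = 0.042) rose under MMF. All 3 MMF libraries of Sec24d were above the 3 of LPS.

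**Figure D5:**
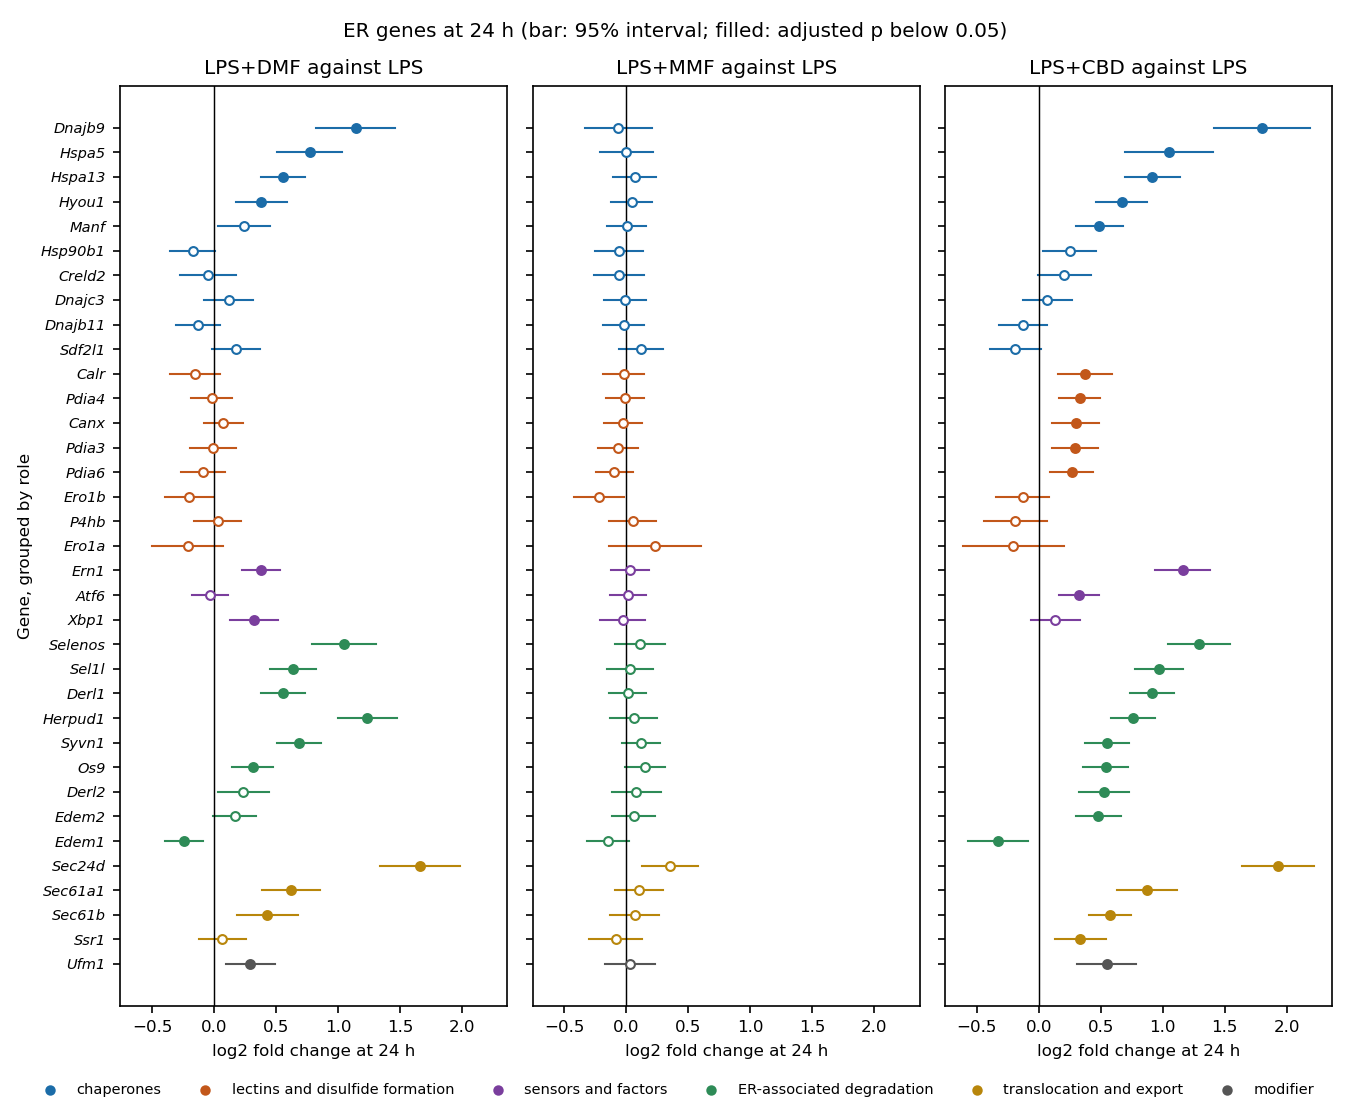
Log2 fold change against LPS at 24 h (horizontal) of the 35 tested ER genes (rows, coloured by role) for DMF, MMF and CBD, with 95% intervals; filled points had an adjusted p below 0.05. The MMF points lie between -0.22 and 0.35 with none filled, while Sec24d reaches 1.66 with DMF and 1.93 with CBD.

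The dependence of the drug effects on time was tested in fits over 12 libraries each. The CBD effect was higher at 24 h than at 4 h for 23 of 36 ER genes (15.5% of all genes) and lower for 0 (16.5%). The DMF effect was higher for 11 of 36 (8.26%) and lower for 0 (8.15%). The MMF effect differed for 0 of 36 (0% of all genes), with 1 gene at an unadjusted p below 0.05 and 0 by edgeR or DESeq2. The difference was 1.83 ± 0.21, adjusted p = 3.40e-05 for Dnajb9, 1.61 ± 0.21, adjusted p = 0.000105 for Sec24d and 1.42 ± 0.14, adjusted p = 1.38e-05 for Selenos under CBD. Under DMF it was 1.36 ± 0.22, adjusted p = 0.000934 for Sec24d, 1.19 ± 0.23, adjusted p = 0.0028 for Herpud1 and 1.07 ± 0.16, adjusted p = 0.000561 for Selenos. The DMF count was 7 without DMF 24 h replicate 3. With the replicate block it was 13, with Xbp1 added among the higher effects (0.47 ± 0.11, adjusted p = 0.00573) and Ero1a as a lower one (-0.74 ± 0.17, adjusted p = 0.00739), and for CBD it was 24, with Ssr1 added (0.41 ± 0.10, adjusted p = 0.00466). This block ties same-numbered libraries of the 2 times, whose correlation was as low as 0.0193 with DMF and 0.0308 with CBD. The added calls rest on that pairing, and the share of all genes called with the block is not given here.

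Levels also moved with time in culture, in ER genes and in other genes. From 4 h to 24 h in DMSO, 16 of 35 ER genes rose (25.7% of all genes) and 7 fell (25.8%). In EtOH 12 of 36 rose (29.1%) and 11 fell (29.5%), which is near the shares of all genes. Ero1a rose most, from 5259, 11136 and 8519 to 29365, 36457 and 33869 in DMSO (2.04 ± 0.21, adjusted p = 4.45e-05) and by 3.00 ± 0.20 in EtOH. Sec24d (1.52 in DMSO, 1.03 in EtOH), P4hb (0.81, 0.99) and Herpud1 (0.80, 0.47) rose in both, while Calr (-0.58, -0.90), Ssr1 (-0.59, -0.72) and Pdia3 (-0.43, -0.60) fell in both. In LPS, 8 of 35 rose (24.7%) and 16 fell (24.3%), with Herpud1 at -0.82 ± 0.10, adjusted p = 0.000238. With DMF, 15 rose (29.7%) and 10 fell (29.1%); with MMF, 13 rose (25.1%) and 10 fell (24.3%); with CBD, 19 rose (31.6%) and 2 fell (31.6%). In either direction 21 of 35 were called with CBD, where 63.2% of all genes were. The 2 that fell with CBD were Dnajb11 (-0.52 ± 0.08, adjusted p = 0.000304) and Herpud1 (-0.32 ± 0.08, adjusted p = 0.00524). Sec24d rose in all 6 treatments, from 0.62 in LPS to 2.22 with CBD.

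The vehicles were compared with each other because CBD and the fumarates had different ones. Between DMSO and EtOH, 0 of 36 ER genes were called by limma at 4 h (0% of all genes) and 0 of 35 at 24 h (0.00854%), with 5 and 3 at an unadjusted p below 0.05. At 4 h DESeq2 called 1 gene and edgeR 0, and at 24 h both called 0. With the replicate block 9 were called at 4 h, 7 of them lower in DMSO than in EtOH and 2 higher, and 0 at 24 h. The share of all genes called with the block is not given here, so the 9 cannot be set beside one. The largest of the 9 was Ero1a (0.82 ± 0.07, adjusted p = 9.22e-05), and Hspa5 was at -0.27 ± 0.04 (adjusted p = 0.00129), with 17891, 15726 and 16665 in DMSO, all below the 19530.2, 20320.2 and 21203 in EtOH.

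Beside the 37, 8 lists of related ER genes were counted in the same fits, 99 genes of which were in the tables. These lists, like the 37, were chosen with earlier results of these data known, so their counts are not independent of that choice. For all genes, 23.9% rose and 24.8% fell with CBD at 24 h, 11.9% and 13.2% with DMF at 24 h, and 12.1% and 10.6% with LPS against DMSO at 24 h, and the counts below stand beside these shares. In the PERK arm and integrated stress response (12 tested), 10 rose and 0 fell with CBD at 24 h, with Ddit3, the factor CHOP, at 3.02 ± 0.15 and Ppp1r15a, which reverses the PERK mark, at 2.21 ± 0.17. With DMF 9 rose and 0 fell, with Trib3, a target of ATF4 and CHOP, at 1.84 ± 0.09 and Ddit3 at 1.4 ± 0.12. This list also moved at 4 h, when 6 rose with DMF (4.55% of all genes), led by Trib3 (1.91 ± 0.19) and Chac1, a glutathione-degrading enzyme (1.72 ± 0.25), while 0 of the 36 tested ER genes were called. LPS alone at 24 h lowered 4 of its genes and raised 1 against DMSO, with Ddit3 at -1.21 ± 0.10 and Ppp1r15a at -1.12 ± 0.10. In the translocon and signal peptidase list, 11 of 14 rose with CBD and 6 with DMF, 0 fell, and Spcs2, of the signal peptidase, was at 0.95 ± 0.08 with CBD. Of the COPII and transport list, 10 of 15 rose and 1 fell with CBD and 7 rose with DMF, led by Mcfd2, a cargo receptor subunit (0.80 ± 0.10 and 0.64 ± 0.08). Of the other ERAD genes, 12 of 17 rose with CBD and 6 with DMF, and of the UFM1 conjugation list 4 of 6 and 3 of 6, with Ufl1, its ligase, at 0.83 ± 0.10 and 0.51 ± 0.09. In the N-glycosylation list 7 of 11 rose and 1 fell with CBD, and 1 rose and 2 fell with DMF, with Mogs, the first glucosidase of glycan trimming, at -1.13 ± 0.11 and -0.40 ± 0.12. Of the other foldases and redox enzymes, 3 rose and 4 fell of 17 with CBD, which is near the shares of all genes, and 1 rose and 4 fell with DMF. The last list holds regulators and proteases of the ATF6 family. Of these, 2 of 5 rose and 1 fell with CBD and 2 rose with DMF, led by the regulator Nfe2l1 (0.94 ± 0.09 and 0.55 ± 0.09).

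The promoter elements shown above were set beside these changes as a description. Of the genes with an ERSE or ERSE-II, 5 of 14 rose under LPS against DMSO at 4 h (median 0.20), and of those with neither, 2 of 22 (median 0.06), where 7.70% of all genes rose. Against EtOH these counts were 2 of 14 (median 0.08) and 0 of 22 (median 0.04), where 5.69% of all genes rose. At 24 h with CBD, 8 of 13 with an element rose (median 0.30) and 17 of 22 without (median 0.53; 23.9% of all genes), and with DMF 4 of 13 (median 0.07) and 12 of 22 (median 0.30; 11.9% of all genes). The 4 with an element that rose under DMF were Hspa5, Hyou1, Herpud1 and Syvn1. Sec24d, with the largest change, holds neither an ERSE nor an ERSE-II in this window but the UPRE printed above.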

How the data were processed

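The authors processed the reads, per the labels and the study's methods, with FastQC 0.12.1, cutadapt 4.4, Trimmomatic 0.39, HISAT2 2.2.1 on GRCm39, HTSeq 2.0.3 and DESeq2 1.40.2 in R 4.3.1; the strand setting of the counting is not given in the sources used here. They deposited 30 tables, 1 per pair of groups, each holding the signal of 6 libraries as normalized counts (reads divided by a DESeq2 size factor) and a mean signal. The same deposited tables hold the authors' own log2 fold changes and their errors, test scores and p-values, which were not used. Whole reads were recovered from the normalized counts (100% of 3127002 values within 0.01 of a whole read), giving the depth of 14110424 to 26676607 reads per library and size factors of 0.750 to 1.53.

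Each pair was tested with limma 3.58.1 (R 4.3.3, empirical Bayes with a trend) on log2(normalized count + 1), two-sided, for genes with at least 10 in at least 3 libraries; this scale understates changes of low genes. Differences between times were fitted in limma on jointly scaled recovered reads of 12 libraries. Printed levels are on that joint scale over 36 libraries, and fold changes come from the pair tables. Groups and replicate numbers came from the sample titles. The labels do not say whether same-numbered libraries were handled together, but their deviations from the group means correlated (every r above 0.1) for DMF and CBD against LPS and the vehicles against each other at both times, for MMF against LPS and DMF against MMF at 24 h, and for 24 h against 4 h in LPS and in LPS with MMF; r was 0.127 to 0.732 there, and a block for the number was fitted as an alternative. Not every library correlated best with its own number for CBD against LPS at 24 h or for 24 h against 4 h in LPS with MMF. The block was also fitted where some r was below 0.1. This includes 24 h against 4 h with DMF and with CBD, and so their differences between times. The p-values measure the spread between libraries within the groups compared, from 3 experiments with 1 cell line. For LPS against the vehicles, whose replicate numbers differ, they do not cover a shift between the sets of replicates. Other alternatives were a pseudocount of 0.5, no filter, TMM scaling, edgeR 4.0.16, DESeq2 1.42.0 and leaving out each library. The fits were tested on simulated data. The 37 genes and the other lists were chosen with earlier results of these data known. All were named by role, with library values for up to the 3 largest called rises and falls of each LPS and drug comparison. Promoters and exons were read from GRCm39 with GENCODE vM39 annotation, and all 37 symbols matched; gene positions are those of the deposited tables (GRCm39). Values of 2 genes of the other lists are not reported here.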

Additional observations from a re-analysis of the deposited data

Results flagged for a closer look

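The effects that differed most between 4 h and 24 h, by the test of that difference in limma, are listed here as values (log2 effect at 24 h minus that at 4 h ± SE, adjusted over all genes). Under LPS against DMSO it was -1.62 ± 0.14, adjusted p = 2.54e-05 for Herpud1, -1.0 ± 0.18, adjusted p = 0.0048 for Dnajb9 and -0.90 ± 0.22, adjusted p = 0.0192 for Sec24d. Herpud1 thereby went from 1.09 at 4 h to -0.53 at 24 h. With DMF against LPS it was 1.36 ± 0.22, adjusted p = 0.000934 for Sec24d, 1.19 ± 0.23, adjusted p = 0.0028 for Herpud1 and 1.07 ± 0.16, adjusted p = 0.000561 for Selenos. With CBD against LPS it was 1.83 ± 0.21, adjusted p = 3.40e-05 for Dnajb9, 1.61 ± 0.21, adjusted p = 0.000105 for Sec24d and 1.42 ± 0.14, adjusted p = 1.38e-05 for Selenos. The DMF and CBD differences share the LPS libraries. Groups of 3 libraries are too small for a test of single outlying libraries.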

How the results depend on the processing

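No called value of an ER gene changed direction under the alternatives run. Direction was not checked for medians or for values that were not called. On the recovered reads, edgeR called as many ER genes as limma in each treatment comparison at 4 h and 24 h (26 for CBD and 17 for DMF against LPS at 24 h). Of 267 called values of ER genes, DESeq2 lost 4, TMM scaling 3, edgeR 5, no filter 18 and a pseudocount of 0.5 lost 0, and the replicate block lost 2 of 231. TMM scaling and the edgeR fit moved the median of all genes by less than 0.03 (log2). DESeq2 was run without the filter on low values. There the median went from -0.0067 to 0.0318 for 24 h against 4 h in LPS with DMF. With the block the count of ER genes called went from 0 to 1 for DMF against LPS at 4 h, from 0 to 2 for MMF against LPS at 24 h and from 0 to 9 for DMSO against EtOH at 4 h, where DESeq2 called 1. It went from 17 to 20 for DMF and from 26 to 28 for CBD against LPS and from 14 to 20 for DMF against MMF at 24 h, and from 11 to 13 and 23 to 24 for the differences between times of DMF and CBD. Those differences tie same-numbered libraries of the 2 times, where r was as low as 0.0193 with DMF and 0.0308 with CBD. Shares of all genes are not given for the fits with the block. For MMF against LPS and DMF against MMF at 4 h, whose libraries share only a number (r as low as 0.0836 and 0.0601, and not every library correlated best with its own number), the block gave 1 instead of 0 and 2 instead of 1. Nor did every library correlate best with its own number for CBD against LPS at 24 h (r as low as 0.127). No paired analysis was possible because, for LPS against DMSO or EtOH, the groups share no replicate numbers (1 to 3 and 4 to 6).

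Leaving out 1 library gave 2 to 6 calls for LPS against DMSO (7) and 1 to 2 for LPS against EtOH (2) at 4 h, 6 to 9 (10) and 3 to 7 (8) at 24 h, 0 to 1 for DMF against MMF at 4 h (1), 11 to 19 for DMF against LPS at 24 h (17), 5 to 8 for the LPS difference between times (9) and 7 to 13 for that of DMF (11). Such fits have fewer libraries. With 3 libraries a group, a missed threshold does not show equality.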

Other observations

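Ero1a differed more between libraries of 1 group at 4 h than the other abundant ER genes. Its normalized counts were 5259, 11136 and 8519 in DMSO, 3574, 6351 and 4049 in EtOH, 4665, 10422 and 5952 in LPS, 7276, 13352 and 8879 with DMF, 7647, 11751 and 14004 with MMF and 6293, 10467 and 8422 with CBD.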
